A study of Mus musculus with 8 samples.

Results

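The sites described here are CpG-dense and almost free of methylation in every sample of the 4T1 model. A site belonged to the set when at least 16 other listed sites lay within 250 bp on the same chromosome and its methylation was at most 10% in all 8 samples. The table listed 136069 sites, 24565 of them dense by this count, and 11157 met both conditions, which was 45.4% of the dense sites and 8.20% of all sites. Members were thus chosen by their measured methylation in all 8 samples, so their low level is a description and not a result.

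The 4T1 line is a transplantable BALB/c mammary carcinoma line that forms lung metastases. Bisulfite sequencing was applied to 2 primary tumors (MFP), to 3 MFP lung metastases and to 3 TVI lung metastases. All 8 samples share the cell line and the strain, and the labels give no ages, no times and no agents beyond the bisulfite conversion. What the labels mean by MFP and TVI is not spelled out, so both stay abbreviated. No primary tumor carries the TVI mark, so a TVI metastasis differs from a primary tumor in both its mark and its organ, and these cannot be told apart. The samples are bulk DNA, in which a middling value can be partial methylation in all cells or a mixture of methylated and unmethylated cells. No coverage was listed. The depth of every value is therefore unknown, and precision rests on the spread between samples, which may be technical because nothing says that samples came from separate animals.

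CpG islands are stretches of the genome that keep their CpG dinucleotides while most of the mammalian genome has lost them. Many hold the start of a gene, and they commonly stay unmethylated while the surrounding DNA is methylated, in part because proteins with CXXC domains bind unmethylated CpGs and recruit enzymes that mark histones in ways that keep DNA methyltransferases away. In cancer cells some islands gain methylation, and the flanks of islands, often called shores, are among the places where methylation differs most between tissues and tumors.

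Neighboring members at most 250 bp apart were joined into 535 groups, called islands below. Positions are those of the deposited table. They differ from those of GRCm38 at many of the promoters placed below, although the submitters' processing notes name mm10. At some, such as Fau, they nearly coincide with GRCm38. No coordinate of another build was laid over the deposited positions. Promoters were instead found by the spacing of their CpGs: a RefSeq promoter (250 bases before to 50 after the start, GRCm38.p6) with at least 15 CpGs was placed where at least 80% of its CpGs matched listed positions, no listed position fell between its CpGs, and only 1 such place existed on any chromosome. This placed 86 of 11378 promoters, from 80 genes, and all 86 fell on the chromosome that RefSeq gives.

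The upstream parts of 6 placed promoters show what such a site set looks like in sequence. Dusp6 and Gadd45b lie in the islands with the most members and the greatest length, Usp36 and Fau have the most CpGs, Fadd lies in the island with the lowest level among those of at least 20 members, and Fkbp1a lies beside a site that fell in the TVI metastases. Each line gives the 250 bases before the RefSeq start, from 5′ to 3′ on the gene's strand. Capitals mark CpGs that are members, and a lower-case cg is a CpG that was not listed or not a member.
Dusp6: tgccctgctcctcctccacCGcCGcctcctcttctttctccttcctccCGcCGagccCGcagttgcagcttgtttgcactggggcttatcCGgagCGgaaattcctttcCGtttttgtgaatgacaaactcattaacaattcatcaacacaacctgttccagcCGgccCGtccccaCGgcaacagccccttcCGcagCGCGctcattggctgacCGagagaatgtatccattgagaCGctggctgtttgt
Gadd45b: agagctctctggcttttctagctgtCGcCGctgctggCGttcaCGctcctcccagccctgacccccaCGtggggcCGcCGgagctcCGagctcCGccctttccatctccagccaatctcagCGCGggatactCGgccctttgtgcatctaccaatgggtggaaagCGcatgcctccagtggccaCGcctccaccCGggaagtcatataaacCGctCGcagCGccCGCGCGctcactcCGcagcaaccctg
Usp36: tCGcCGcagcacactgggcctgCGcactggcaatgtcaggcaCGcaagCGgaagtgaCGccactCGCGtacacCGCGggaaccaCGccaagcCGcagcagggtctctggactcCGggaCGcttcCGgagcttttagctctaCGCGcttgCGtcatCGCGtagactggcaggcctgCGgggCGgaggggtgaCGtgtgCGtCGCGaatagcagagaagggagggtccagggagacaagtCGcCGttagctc
Fau: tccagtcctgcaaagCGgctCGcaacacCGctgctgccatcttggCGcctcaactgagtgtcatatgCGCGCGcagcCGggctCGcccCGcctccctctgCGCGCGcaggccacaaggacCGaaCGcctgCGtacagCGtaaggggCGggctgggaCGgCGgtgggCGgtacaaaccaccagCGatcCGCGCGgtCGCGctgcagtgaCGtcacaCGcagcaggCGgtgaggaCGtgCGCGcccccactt
Fkbp1a: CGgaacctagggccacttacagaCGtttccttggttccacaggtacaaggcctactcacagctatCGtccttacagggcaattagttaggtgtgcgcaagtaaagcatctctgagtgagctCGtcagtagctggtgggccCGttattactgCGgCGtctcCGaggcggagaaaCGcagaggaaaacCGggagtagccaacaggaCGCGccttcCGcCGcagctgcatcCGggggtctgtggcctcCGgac
Fadd: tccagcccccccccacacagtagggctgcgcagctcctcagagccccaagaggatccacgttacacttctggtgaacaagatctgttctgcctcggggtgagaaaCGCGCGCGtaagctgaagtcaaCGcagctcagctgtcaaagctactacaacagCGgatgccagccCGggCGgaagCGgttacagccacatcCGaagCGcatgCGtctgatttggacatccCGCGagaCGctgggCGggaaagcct
In GRCm38.p6 these stretches are chr10:99262981-99263230 for Dusp6, chr10:80929841-80930090 for Gadd45b, chr11:118290245-118290494 for Usp36 on the reverse strand, chr19:6057697-6057946 for Fau, chr2:151542233-151542482 for Fkbp1a and chr7:144582442-144582691 for Fadd on the reverse strand. In the Dusp6 stretch 16 of 16 CpGs were members, in Gadd45b 22 of 22, in Usp36 28 of 28 and in Fau 33 of 33. In Fkbp1a 16 of 18 CpGs were members, and in Fadd 16 of 19. The CpGs of the Fau stretch come in runs such as the CGCGCG repeats, while those of Dusp6 are more widely spaced.

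Dense sites of the table fell into a low and a high class with little between them. Of the 24565 dense sites, 9995 had a mean of 80% or more, and 2271 (9.24%) had a mean between 20% and 80%. Above 90% in all 8 samples were 5928 dense sites. Among the members, 8579 (76.9%) did not pass 5% in any sample and 59 were listed at 0 in all 8. At the edge of the rule, 163 members had a highest value between 9% and 10%, with a mean of 3.72%, and 124 dense sites just outside it had a highest value between 10% and 11%, with a mean of 4.52%. On the density side, 798 members had exactly 16 other sites within reach, and 833 sites with exactly 15 were equally low.

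**Figure D1:**
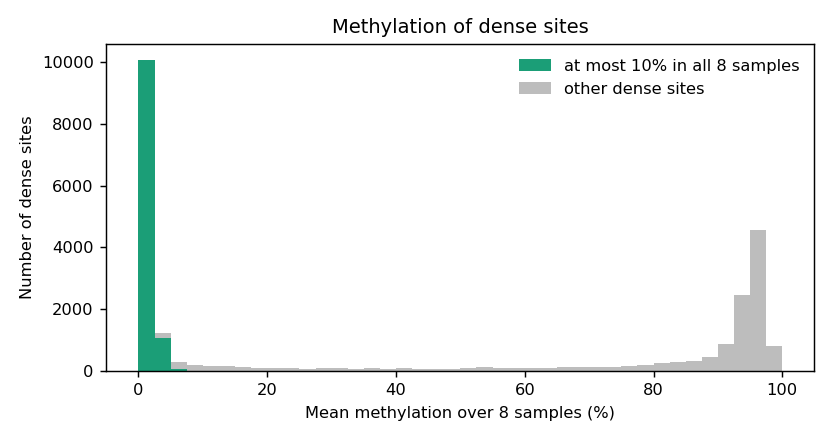
Number of dense sites (vertical axis) by mean methylation over the 8 samples (horizontal axis, percent, bins of 2.5 points), with the 11157 members in green and the other dense sites in gray. The members crowd the lowest bin, 10051 of them under 2.5%, and most other dense sites sit above 80%.

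The mean methylation of the members was between 1.40% and 1.57% in each of the 8 samples. It was 1.44% and 1.40% in the primary tumors, 1.45%, 1.55% and 1.52% in the MFP metastases, and 1.55%, 1.56% and 1.57% in the TVI metastases. By group this came to 1.42% ± 0.0295 (SD, n = 2), 1.51% ± 0.0528 (SD, n = 3) and 1.56% ± 0.00915 (SD, n = 3). All 6 metastases lay above both tumors, the closest pair at 1.45% and 1.44%, and the TVI and MFP metastases overlapped. That order depended on the rule: with a ceiling of 5% the first MFP metastasis, at 1.13%, lay below both tumors (1.19% and 1.17%), and with at least 25 other sites it lay below the first tumor (1.419% against 1.425%). The other dense sites, by contrast, had group means of 80.3%, 81.0% and 79.2%. No test was made, because the rule capped these values.

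The share of members listed at exactly 0 moved more between samples than the mean did. It was 39.9% and 38.3% in the tumors, 41.4%, 35.9% and 29.8% in the MFP metastases, and 34.2%, 30.2% and 25.2% in the TVI metastases. The MFP metastases overlapped both other groups, and all TVI values lay below both tumors. A share at 0 also follows the number of reads, which the table does not give. Sites above 5% were few in every sample, from 342 in the third TVI metastasis to 577 in the first MFP metastasis, with no separation of the groups.

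**Figure D2:**
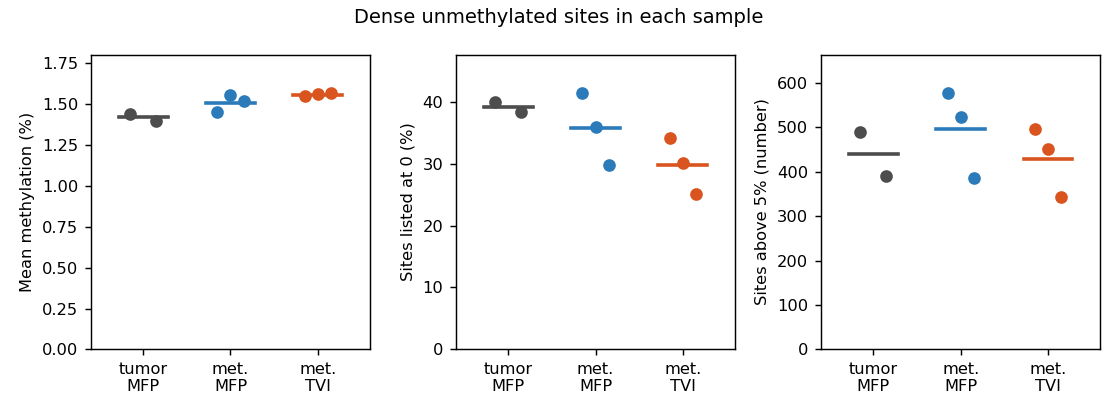
Mean methylation in percent, percent of members listed at 0, and number of members above 5% (3 panels, left to right) in each sample, with points for samples and bars for group means; "met." stands for lung metastasis. The means lie between 1.40% and 1.57%, while the share at 0 runs from 25.2% to 41.4%, with the MFP metastases overlapping both other groups.

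Low methylation and density went together among dense sites. Members made up 32.8% of sites with 16 to 20 others in reach, 52.5% with 21 to 30, 66.0% with 31 to 40 and 73.2% with 41 to 65. Within islands of at least 20 members the mean level was 1.53% within 25 bp of an end and 1.42% at 251 to 1169 bp. The first came from 243 islands and the second from 117, so a fall inside islands is not separated from differences between islands. Neighboring members of an island lay a median of 10 bp apart, against 13 bp for other dense sites, and 8.73% of neighboring members were 2 bp apart, as in the run cgcg, against 5.62%. These are descriptions of the listed positions, which are not a complete list of the genome's CpGs.

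Members lay on 19 chromosomes. Chromosome 11 held 1821 of them (16.3%), chromosome 19 held 1120, chromosome 2 held 1092 and chromosome 5 held 977. The share of dense sites that were members ran from 28.3% on chromosome 4 to 66.3% on chromosome 7, leaving aside chromosome 18, where all 61 dense sites were members. The X chromosome had 71 listed sites and no dense site.

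An island had a median of 18 members (quartiles 5 and 31) and a median length of 274 bp. At one extreme were 75 islands of a single member. The 243 islands with at least 20 members held 8933 members (80.1%), and 38 islands had at least 50. Inside the island spans 11836 sites were listed, and 94.3% of them were members. Of the 679 others, 10 had a mean of 50% or more, in 6 islands. Under the joining rule a run of more than 250 bp without members ends an island, so these low counts follow in part from the rule.

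The island with the most members held Dusp6, the phosphatase that inactivates ERK kinases in the cytoplasm. It had 111 members at chr10:98725406-98727456. Its mean was 1.03% and 1.20% in the tumors, 1.69%, 1.27% and 1.22% in the MFP metastases, and 1.09%, 1.12% and 1.21% in the TVI metastases. The MFP metastases lay above the rest, the closest pair at 1.22% and 1.21%, and tumors and TVI metastases overlapped. The longest island, 2341 bp at chr10:80391631-80393971, held the stress-induced gene Gadd45b with 102 members. Its samples ranged from 1.36% in a tumor to 1.69% in an MFP metastasis.

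The other islands rich in members looked much the same. Akap8, a nuclear anchoring protein for protein kinase A, lay in 104 members at chr17:32457229-32458683, with group means of 1.30%, 1.36% and 1.56% for tumors, MFP and TVI metastases. Cdc42ep4, a binding partner of the GTPase CDC42, lay in 93 members at chr11:113611978-113613510, with means of 1.46%, 1.48% and 1.48%. The RIKEN locus 9530052E02Rik lay in the tightest of these, with 93 members in 850 bp at chr8:11007470-11008319. Usp36, a nucleolar deubiquitinating enzyme, had 79 members, P4hb, a protein disulfide isomerase of the endoplasmic reticulum, had 75, and the pair Fau and Mrpl49 shared 75. Means over the 8 samples were 1.34% for the Usp36 island, 1.37% for P4hb and 1.36% for Fau and Mrpl49. Among the 12 islands with the most members, 4 held no placed promoter, on chromosomes 2, 8, 14 and 16.

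Levels of islands with at least 10 members spread over a narrow range, from 0.844% to 2.96% with a median of 1.44%. In 327 of these 347 islands no sample passed 3%. Among islands of at least 20 members, the lowest mean, 1.05%, belonged to the 34 members around Fadd, the adaptor that joins death receptors to caspase-8, at chr7:151768115-151768491. The highest, 2.37%, belonged to 25 members at chr4:94716762-94717256, where the samples ran from 1.79% in a tumor to 3.35% in an MFP metastasis.

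Between the metastasis groups, island means differed by less than 1 point in 336 of 347 islands (96.8%). The difference of TVI from MFP metastases ran from -1.53 to 1.73 points with a median of 0.0491, and that of MFP metastases from tumors from -1.01 to 1.32 with a median of 0.0809. The largest rise was at chr11:112642674-112643020, with 23 members. There the tumors had 1.33% and 1.53%, the MFP metastases 1.36%, 0.98% and 1.39%, and the TVI metastases 3.16%, 2.28% and 3.47%. All 3 TVI values lay above the other 5, and all remained below 4%. The largest fall was at chr1:59539794-59539942, with 19 members. There the tumors had 1.99% and 2.01%, the MFP metastases 2.90%, 2.95% and 4.10%, and the TVI metastases 2.08%, 1.65% and 1.63%. The MFP metastases stood above both other groups.

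The Fkbp1a island was among the 5 largest falls. Fkbp1a encodes FKBP12, the protein that binds FK506 and rapamycin. Its 17 members at chr2:151367970-151368223 had 1.91% and 1.69% in the tumors, 3.04%, 2.01% and 3.04% in the MFP metastases, and 2.49%, 1.26% and 1.36% in the TVI metastases. The metastasis groups overlapped. Islands at both ends of the range were picked for these differences, so they carry no test.

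Single members were also counted in the fit over the whole table, which used limma on the deposited fractions with 1 mean per group and a Benjamini-Hochberg adjusted p under 0.05. For TVI against MFP metastases 16.9% of the 135914 sites tested were called, and of the 11098 members that varied at all 121 were called (1.09%), 72 higher and 49 lower, where 10.4% of all sites were higher and 6.53% lower. After quantile normalization the called members were 36 higher and 60 lower, where 11542 of all sites were higher and 11017 lower. Without MFP metastasis 1, 2 or 3 the called members were 32 and 76, 39 and 66, or 35 and 61. The called members lay in 100 islands, at most 4 in any of them, and the largest difference was 7.38 points. For TVI metastases against tumors, 16.6% of all sites and 104 members were called, 56 higher and 48 lower, against 11.4% and 5.24% of all sites (29 and 73 after quantile normalization, 14 and 94 without the first tumor, 13 and 113 without the second). For all metastases against tumors, 6.74% of all sites and 42 members were called, 6 higher and 36 lower, against 5.12% and 1.62% of all sites (4 and 43 after quantile normalization, 22 and 12 on the logit scale). After quantile normalization all sites were 10073 higher and 9688 lower for TVI metastases against tumors, and 3253 and 3427 for all metastases against tumors. For MFP metastases against tumors 0.0464% of all sites (0.0427% higher and 0.00368% lower) and 0 members were called by limma. At an unadjusted limma p under 0.05 were 486 of 11098 members and 11766 of 135914 sites. A site held between 0% and 10% has little room to differ, so nothing is read from these counts.

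Of the 86 placed promoters, 76 held at least 1 member, from 71 genes in 64 islands, and in 45 of them every listed site was a member. Together they held 1279 members, 11.5% of the set, so most members have no gene named here. Over these 71 genes, taking the promoter with the most members for each, the median promoter mean was 1.41%, and 68 were under 3%. The median observed over expected CpG ratio was 0.795 and the median GC content 60.3%, against 0.384 and 52.7% over all 32851 RefSeq promoters. The placement asked for at least 15 CpGs, which favors CpG-rich promoters.

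Of the genes with member promoters, some are given here by role, as picked after the placements were seen. Those of translation were Fau (1.40%), a ubiquitin-like protein fused to a ribosomal protein, Rps21 (1.30%), a protein of the small ribosomal subunit, and the initiation factor subunits Eif2s2 (1.17%), Eif2b2 (1.56%) and Eif2b4 (1.52%). Among signaling kinases and their partners were Map2k2 (1.16%), which phosphorylates ERK, Gsk3b (1.62%), which phosphorylates beta-catenin for destruction, Tyk2 (1.33%), a Janus kinase, Prkab1 (1.47%), a subunit of AMP-activated kinase, and Mlst8 (1.23%), a subunit of mTOR complexes. Among genes of the cytoskeleton were Cfl1 (1.62%), the actin-severing protein cofilin, Arpc3 (1.79%), a subunit of the Arp2/3 complex, and Ssh3 (1.51%), of the slingshot phosphatases. The promoter of Fos, an immediate early transcription factor, had 16 members and a mean of 1.14%. That of Pdgfa, a growth factor for mesenchymal cells, had 19 members and 2.47%.

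Of the gene lists drawn up for this comparison, few members could be placed. Of 18 genes of the methylation machinery and CpG island readers, 1 was placed: Mbd3, a subunit of the NuRD complex. Of 31 tumor suppressors often silenced by methylation in carcinoma, 1 was placed: Socs1, which restrains JAK-STAT signaling. Of 24 Wnt and Notch genes, Fzd1, a Wnt receptor, was placed and held no member. Mbd3, Socs1 and Fzd1 came in only under a looser placement, chosen after the data were seen, which asked for 10 CpGs with 60% listed. The Mbd3 island had 33 members with group means of 1.26%, 1.30% and 1.41%. The Socs1 island had 46 members, with 1.37% and 1.35% in the tumors, 1.21%, 1.33% and 1.37% in the MFP metastases, and 1.30%, 1.28% and 1.33% in the TVI metastases. The 8 values at Socs1 lay between 1.21% and 1.37%, low by the rule. No promoter of the lists of housekeeping, Polycomb, epithelial-mesenchymal or developmental genes was placed, nor any of the markers of lung epithelium, endothelium, leukocytes, fibroblasts or mammary epithelium, so the labelled tissues were not checked against markers.

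Some islands held the promoters of a pair of genes on opposite strands. Over both placements there were 13 such pairs. Fau was paired with Mrpl49, which encodes a mitochondrial ribosomal protein. Rps6kb1, the S6 kinase downstream of mTOR, was paired with Tubd1, which encodes delta-tubulin. Other pairs were Chtf18 with Rpusd1, Map3k11 with Pcnx3, Eif2b4 with Snx17, and Nudt22 with Trpt1. In each pair both promoters held members of the same island. The place of the starts within it, and the sites between them, were not checked. The Fau sequence above is also upstream of Mrpl49.

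Motifs were searched on both strands of the 300 bases in the 71 genes with a member, as descriptions of letters, each motif counted on its own even where matches overlap. The SP1 box GGGCGG was in 57.7% of them, against 35.7% of all promoters and 76.8% of the 11378 with at least 15 CpGs. The ETS motif CCGGAAG was in 30.99%, against 8.86% and 18.9%. The letters GCGCATGC, known as the NRF1 core, were in 12.7%, against 2.71% and 6.14%, and CCAAT was in 40.8%, against 37.4% and 34.9%. TATAAA was in 7.04%, against 13.6% and 4.61%. No test was made of these shares.

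A few placed promoters lay at the limit of the set or outside it. Tubgcp6, a subunit of the gamma-tubulin ring complex, had 14 members at chr15:88953542-88953650, with means of 0.949%, 0.944% and 1.09% in tumors, MFP and TVI metastases. The 9 remaining listed sites of the same promoter, at chr15:88953722-88953828, had 39.3% ± 3.86 (SD, n = 2), 39.6% ± 2.13 (SD, n = 3) and 54.1% ± 0.721 (SD, n = 3). The change from unmethylated to methylated DNA thus fell inside that promoter. The 2 placed promoters of Tcam1, a gene of cell adhesion in the testis, held no member. In the first of them the tumors had 58.7% and 60.8%, the MFP metastases 63.1%, 61.4% and 58.3%, and the TVI metastases 40.6%, 36.7% and 36.9%. Rasgrp2, an exchange factor for Rap1 in platelets, held no member either, with group means of 68.6% ± 0.890 (SD, n = 2), 70.5% ± 1.25 (SD, n = 3) and 46.5% ± 5.17 (SD, n = 3). These were singled out after their values were seen.

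Around the starts of the 71 genes with member promoters, methylation formed a trough. In the 250 bp before the start 94.7% of listed sites were members, and in the 250 bp after it 92.7%. Members fell to 32.2% of sites at 501 to 750 bp upstream and were 42.3% at 500 to 749 bp downstream. Mean methylation in the tumors was 2.28% just after the start, 14.1% at 500 to 749 bp downstream and 64.8% at 1750 to 1999 bp. At 500 to 749 bp downstream it was 14.7% ± 0.284 (SD, n = 3) in the MFP and 11.3% ± 0.433 (SD, n = 3) in the TVI metastases. At 501 to 750 bp upstream the order was the opposite, with 19.1% ± 0.208 (SD, n = 3) in the MFP and 20.6% ± 0.237 (SD, n = 3) in the TVI metastases. The TVI metastases were also slightly higher in the upstream bins nearer the start. In every bin farther upstream and in every downstream bin they were lower, as at 1001 to 1250 bp upstream. There the MFP metastases had 41.9% ± 0.104 (SD, n = 3) and the TVI metastases 38.1% ± 0.746 (SD, n = 3). No test was made of these bins. These 71 genes were chosen for holding members, so the low center is set by the choice.

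**Figure D3:**
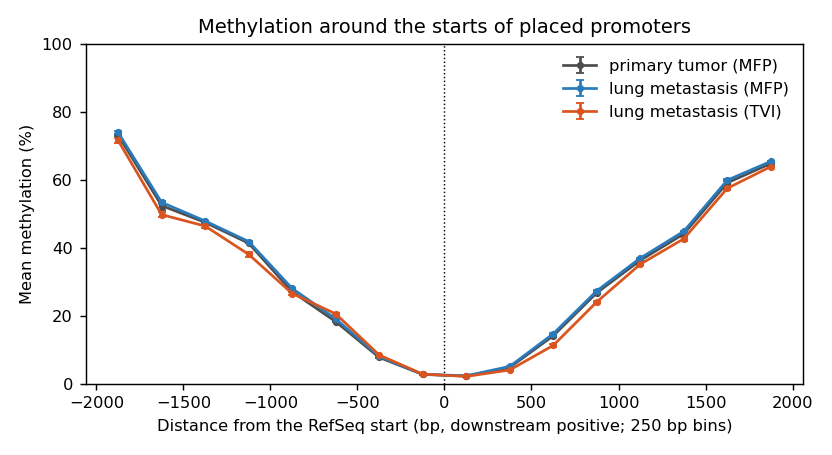
Mean methylation in percent (vertical axis) by distance from the RefSeq start in bins of 250 bp (horizontal axis, downstream positive), for 71 genes whose placed promoter holds a member; points are group means over 2 or 3 samples and bars are SDs. Levels are below 3% on both sides of the start and rise to 63.9% or more in the outermost bins.

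The values of sites beside the set were not used by the rule and could be tested. The 16021 border sites have fewer than 16 others within 250 bp and lie within 2000 bp of a member. Methylation rose steeply across them, which is partly set by choosing sites for lying near members. Within 250 bp of a member 72.0% of border sites were themselves at most 10% in every sample, against 10.4% at 1501 to 2000 bp. In the tumors it was 13.1% within 250 bp of a member, 35.5% at 251 to 500 bp, 50.03% at 501 to 1000 bp, 64.6% at 1001 to 1500 bp and 71.9% at 1501 to 2000 bp. From the ends of islands with at least 20 members, the first site with 50% or more lay a median of 718 bp away (quartiles 394 and 1145), among 334 of 486 ends that had such a site within 2000 bp. In 15 of them it was within 100 bp.

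**Figure D4:**
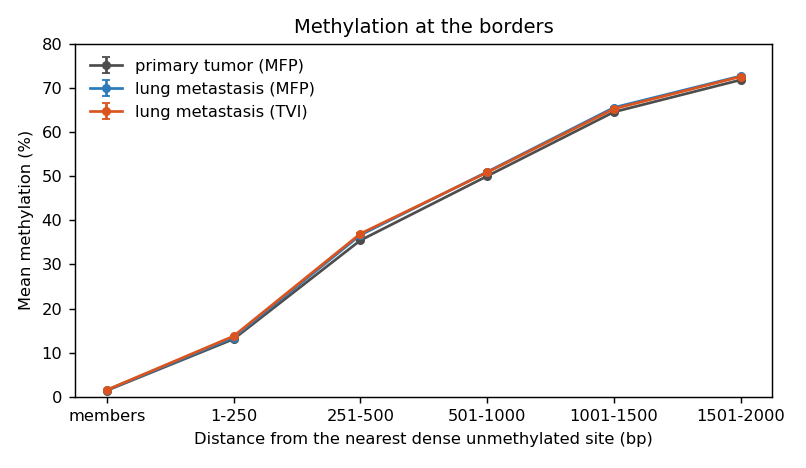
Mean methylation in percent of members and of border sites (vertical axis) by distance in bp from the nearest member (horizontal axis, classes of unequal width), with points for group means of 2 or 3 samples and bars for SDs. All 3 groups rise from below 2% in the members to between 71.9% and 72.7% at 1501 to 2000 bp.

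The mean over all border sites was slightly higher in metastases than in tumors on the deposited scale. It was 45.5% and 45.1% in the tumors, 46.1%, 46.1% and 46.2% in the MFP metastases, and 46.4%, 45.9% and 46.1% in the TVI metastases. All 6 metastases lay above both tumors, by 0.846 points on average. The two-sided exact permutation p was 0.0357, the smallest that 6 against 2 samples can give, and 0.133 after adjustment over the 4 comparisons, so the difference did not pass. After quantile normalization the same difference was -0.498 points, so its direction depends on the scale. TVI and MFP metastases differed by 0.010 points (exact permutation p = 0.9, adjusted 0.9, with 3 samples a group and a smallest possible p of 0.1), and by -1.25 points after quantile normalization. Over the 135914 sites tested in the whole table the mean differences on the deposited scale were larger than these border differences. They were 1.29 points for all metastases against tumors and 1.12 points for TVI against MFP metastases. Within 250 bp of a member the TVI metastases had 13.8% ± 0.0653 (SD, n = 3) and the MFP metastases 13.4% ± 0.0498 (SD, n = 3). All 3 TVI values lay above all 3 MFP values, a difference of 0.332 points with the smallest possible exact permutation p of 0.1 (adjusted 0.1). After quantile normalization it was -0.491 points, so this direction too depends on the scale.

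The border means covered many single sites that moved in opposite directions. For TVI against MFP metastases limma called 3203 of 15987 border sites (20.04%, against 16.9% of all sites), 1669 higher and 1534 lower in TVI. After quantile normalization these were 1327 higher and 1872 lower. Over all sites the calls went from 14120 higher and 8881 lower to 11542 and 11017 with that normalization. The called share was 14.3% within 250 bp of a member, 24.5% at 251 to 500 bp and 19.3% at 1501 to 2000 bp. Most sites within 250 bp were at most 10% in every sample (72.0%) and had little room to differ, so nothing is read from the lower share there. A called border site lay beside 461 of the 529 islands that had border sites (87.1%). Of these, 119 had rises alone, 87 had falls alone and 255 had both. An island with more border sites has more chances to hold a called one. No such share was computed away from the set, so nothing is read from these island counts.

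Border sites were also called against the tumors. For TVI metastases against tumors 3064 border sites were called, 1809 higher and 1255 lower (1207 and 1664 after quantile normalization), which was 19.2% of border sites against 16.6% of all sites. For all metastases against tumors 1279 were called, 841 higher and 438 lower (411 and 685 after quantile normalization). This was 8.0% of border sites, against 6.74% of all sites, and the count was 398 without the first tumor and 429 without the second. For MFP metastases against tumors 10 were called, 9 of them higher, which was 0.0626% of border sites against 0.0464% of all sites. These comparisons share their tumor samples. After quantile normalization all sites called for TVI metastases against tumors were 10073 higher and 9688 lower, from 15428 and 7124. For all metastases against tumors they were 3253 and 3427, from 6954 and 2208.

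On the deposited scale, calls at border sites with mean levels between 10% and 90% were split nearly evenly between higher and lower in TVI metastases. At other sparse sites of these levels more calls were higher than lower. This is a count over sites, with no test of the difference. The classes of level were chosen after the data were seen. At a mean of 10% to 30%, 30.8% of 1194 border sites were higher and 33.5% lower, against 48.8% and 15.3% of 4293 sparse sites away from the set. At 30% to 70%, 28.5% were higher and 29.8% lower, against 43.0% and 15.4%. At 70% to 90% they were 19.8% and 21.3%, against 24.1% and 15.4%. At the ends of the scale both sets leaned the same way: at 0% to 10% more were higher (355 against 85 lower at border sites, 770 against 120 at the others), and at 90% to 100% more were lower (43 higher against 91 lower, and 574 against 752). The mean that sets the class includes the TVI values, and a site near an end has little room to move toward it. Nothing is therefore read from the lean at the ends. After quantile normalization the values at 10% to 30% were 24.6% and 41.04% for border sites, against 40.5% and 19.9%. At 30% to 70% they were 22.1% and 36.02%, against 35.1% and 20.6%. At 70% to 90% they were 16.5% and 25.3%, against 19.9% and 18.8%. The even split at border sites was thus lost on that scale. On the deposited scale the total called was 64.3% against 64.2% at 10% to 30%, and 6.96% against 10.8% at 0% to 10%. The latter class holds the most border sites (6325).

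**Figure D5:**
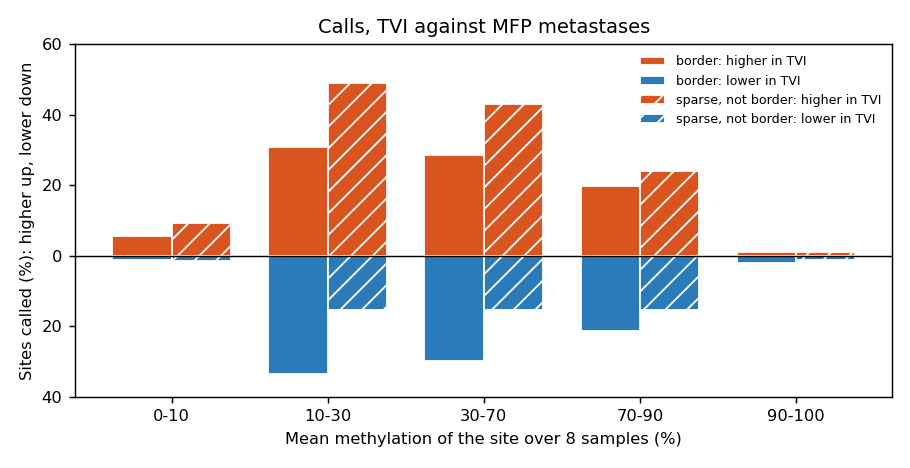
Percent of sites called by limma for TVI against MFP metastases (vertical axis, higher in TVI upward and lower downward) by mean methylation over the 8 samples (horizontal axis, percent), for border sites (plain bars) and other sparse sites (hatched bars), on the deposited scale. At 10% to 30% border sites were split 30.8% higher and 33.5% lower, the other sparse sites 48.8% and 15.3%.

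Some border sites went from one end of the scale to the other. The largest rise was at position 141083023 of chromosome 5, 551 bp from an island at chr5:141083574-141083995. The tumors had 19.1% and 9.43%, the MFP metastases 10.3%, 10.3% and 6.85%, and the TVI metastases 83.8%, 97.4% and 92.1%. All 3 TVI values lay far above the other 5, a difference of 81.9 points from the MFP metastases (SE 4.24, limma adjusted p = 8.97e-07). The island beside it stayed at or below 10% at each of its members in all samples, by the rule.

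The largest fall was at position 56591800 of chromosome 12, 1618 bp from the island at chr12:56593418-56593653. The tumors had 90.1% and 89.8%, the MFP metastases 96.4%, 89.8% and 90.4%, and the TVI metastases 21.9%, 13.6% and 22.3%. This was a difference of -72.9 points (SE 4.18, limma adjusted p = 1.35e-06), with no overlap of TVI and the rest.

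A pair of the 10 named border sites lay beside islands with placed promoters. At position 7071110 of chromosome 19, 149 bp from the island shared by Nudt22, a Nudix hydrolase, and Trpt1, a tRNA phosphotransferase, the tumors had 22.7% and 24.2%, the MFP metastases 22.4%, 20.4% and 19.7%, and the TVI metastases 69.5%, 91.7% and 88.9%. The difference was 62.5 points (SE 5.30, limma adjusted p = 1.11e-05). Beside Fkbp1a, at position 151369306 of chromosome 2 and 1083 bp from the members printed above, the tumors had 78.6% and 72.3%, the MFP metastases 82.5%, 77.3% and 76.2%, and the TVI metastases 20.97%, 8.09% and 5.65%. The difference was -67.1 points (SE 4.82, limma adjusted p = 4.16e-06). The Fkbp1a members were at or below 10% in every sample by the rule, while this site was above 70% in the tumors and MFP metastases and below 21% in the TVI metastases.

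The remaining named sites had the same form. Rises of 69.7, 66.7 and 66.1 points were at position 91012669 of chromosome 16, 93919248 of chromosome 16 and 26357636 of chromosome 2. Differences of -66.6, -66.3 and -66.2 points were at position 53584894 of chromosome 11, 167366359 of chromosome 2 and 5691506 of chromosome 19. In each of the 10 the MFP metastases differed from the tumors by at most 8.24 points, with limma adjusted p-values from 0.777 to 0.998.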

How the data were processed

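DNA methylation was measured in 2 primary tumors (MFP), 3 lung metastases (MFP) and 3 lung metastases (TVI) of the 4T1 model. A ZR-Duet kit served for extraction, per the labels' protocols, and DNA was converted with an EZ-DNA Methylation Gold kit. Trimmomatic, Bismark and mm10 are named in the submitters' processing notes; the selection of sites is not given in the sources used here. As their table, the authors deposited beta values, the methylated fraction from 0 to 1 at each site, per the file headers, and these are printed as percent. No coverage is listed, so no interval or floor was computed.

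Members, islands and border sites were found with Python 3.11.15 (pandas 2.3.3, numpy 2.4.6), and promoters were placed with numba 0.67.0. The 135914 sites with any variation entered a limma fit (limma 3.58.1, R 4.3.3) on the fractions, with 1 mean per group, a variance trend, two-sided tests and Benjamini-Hochberg adjustment over all sites at 0.05. The script was tested on simulated data. Differences are in percentage points. Alternatives were quantile normalization, a logit2 scale (offset 0.01), no variance trend, a filter to means of 1% to 99%, a replicate block, each sample left out, other limits for members, islands and borders, and stricter and looser placements. The members and lists were chosen with earlier results of these data known. Islands were named for having the most members (12), the 5 highest and 5 lowest means (at least 20 members), the 5 largest differences between metastasis groups in each direction (at least 10 members), or a listed gene; border sites for the 5 largest called rises and 5 largest falls. Promoter sequences are from RefSeq (GRCm38.p6).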

Additional observations from a re-analysis of the deposited data

Results flagged for a closer look

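At 3203 border sites the difference from the tumors was not the same in the TVI and the MFP metastases, by the limma test of TVI against MFP metastases (adjusted p under 0.05). This was 20.04% of border sites, against 16.9% of all sites. At mean levels of 10% to 30% the called share was 64.3% of border sites and 64.2% of other sparse sites. Without 1 sample at a time the count ran from 2626 to 3221. Which property of the samples this follows was not tested.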

How the results depend on the processing

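All 10 named border sites kept their sign and their call under each alternative run. After quantile normalization the mean border difference was reversed, at -1.25 points for TVI against MFP metastases, -1.12 for TVI metastases against tumors and -0.498 for all metastases against tumors. Within 250 bp of a member it was reversed too, at -0.491, -0.534 and -0.288, and at -0.0422 for MFP metastases against tumors; the cause was not tested. Without the variance trend, called members numbered 49 for TVI against MFP metastases, 32 for TVI metastases against tumors and 11 for all metastases against tumors. All sites called were 23269, 22805 and 10778 in that order. MFP metastases against tumors gave 155 sites and 22 border sites. For that comparison quantile normalization gave 28 sites and 4 border sites, and the logit2 scale 0 and 0, with limma calling 10754 and 1299 at an unadjusted p under 0.05. A filter to means of 1% to 99% left 25 called members and 9697 called sites for all metastases against tumors. A border of 1000 bp, which holds fewer sites, gave 2042, 5, 1947 and 808 called border sites for TVI against MFP metastases, MFP metastases against tumors, TVI metastases against tumors and all metastases against tumors. Other limits on members moved their group means (tumors, MFP, TVI), which follows from the limits: 1.18%, 1.23% and 1.31% at a ceiling of 5%, 1.54%, 1.64% and 1.70% at 15%, 1.49%, 1.58% and 1.67% with 10 other sites, and for TVI 1.51% with 25 other sites (4974 members) and 1.59% with 8 within a shorter distance. Placements numbered 53 with 100% of CpGs listed, 46 with 20 CpGs and 157 with 10 CpGs and 60% listed.

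Leaving out 1 sample at a time, called members ran from 76 (without TVI 2; 77 without TVI 3) to 112 for TVI against MFP metastases and from 69 (without TVI 2) to 126 for TVI metastases against tumors. For all metastases against tumors they ran from 20 (without TVI 3; 22, 23 and 26 without TVI 2 or MFP 3, MFP 1 and MFP 2) to 38. Called border sites ran from 2626 to 3221 and from 2366 to 3082 for the first pair of comparisons, and from 398 to 1391 for all metastases against tumors, where sites ran from 3014 (without tumor 2; 3081 without tumor 1) to 9642. For MFP metastases against tumors, sites ran from 0 to 18 and border sites from 0 to 1, whichever sample was left out, and limma gave 10623 to 11502 sites at an unadjusted p under 0.05 where it called 0. The mean border difference for TVI against MFP metastases ran from -0.113 (without TVI 1; -0.00643 without MFP 2) to 0.123. For all metastases against tumors it ran from 0.677 to 1.01, with an exact permutation p of 0.143 without either tumor. With 1 tumor, that tumor was assumed to vary like the other groups. Without TVI 2, all sites called were 18497 for TVI against MFP metastases and 17755 for TVI metastases against tumors. Without TVI 3, all sites called were 6232 for all metastases against tumors.

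With the replicate number as a block, called members were 56 for TVI metastases against tumors, where all sites called were 19639. For all metastases against tumors called members were 11, where sites were 5213 and border sites 735. MFP metastases against tumors gave 0 sites and 0 border sites (10917 and 1283 at an unadjusted limma p under 0.05). The deviations of samples with the same number were nearly uncorrelated (correlations of -0.0037 to 0.0172). Pairs with different numbers were not set beside them, and the labels do not say whether a shared number marks a shared animal.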
